A study of Mus musculus with 2 samples.

Results

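The data describe 383 cells with an intermediate level of Car1 RNA in a droplet library of mouse long-term haematopoietic stem cells (LT-HSC). Car1 encodes carbonic anhydrase 1, an abundant red cell enzyme whose RNA appears early on the path from stem cell to red cell. The cells were taken from the barcodes with at least 1000 detected genes and under 10% of molecules from mitochondrially encoded genes. They were chosen by 2 measured genes, with Car1 from 10 to under 50 and Pf4 under 10 unique molecular identifiers (UMIs, 1 per captured RNA molecule) per 10000 UMIs of the cell. Pf4 encodes platelet factor 4 and marks megakaryocyte-lineage cells. The 383 cells were 14.1% (95% interval 12.8 to 15.4) of the 2722 kept LT-HSC cells, and the whole series held 9370 kept cells.

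The study sorted marrow stem cells of C57Bl6 mice, wild type and 8 weeks old per the series title, into 2 groups and made 1 library of each. LT-HSC were gated as LSK cells, which carry Sca-1 and Kit and no lineage marker, that lacked CD34, CD48 and Flk2 and carried CD150. The second library, ST-HSC for short-term stem cells, came from LSK cells that lacked CD34 and carried CD150 and CD48. The number of animals behind each library is not given in the sources used here, and nothing separates animal, library and gate. Neither group has a replicate, so no p-value is given. Every interval below is an exact 95% interval that covers counting error only, and cells are not replicates.

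Red cells arise from stem cells through progenitors that switch on the transcription factors GATA1 and KLF1 and later fill with haemoglobin. Stem cell factors such as MECOM, HLF and MEIS1 are lost along that path. In textbook accounts GATA2, which works in stem cells and early progenitors, is replaced by GATA1 as red cell genes come on.

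The Car1-intermediate cells were set beside 3 other groups of the same library. These were 1627 Car1-low cells (Car1 and Pf4 both under 10), 458 Car1-higher cells (Car1 of 50 or more, Pf4 under 10) and 254 Pf4-high cells (Pf4 of 10 or more). The groups are ranges cut from 2 genes, not separate types. Along the lower limit 9 cells lay between 8 and 10 and 19 between 10 and 12, and along the upper limit 38 lay between 45 and 50 and 37 between 50 and 55. A further 5 cells had Car1 in range but too much Pf4. Levels of a group are given in CPM, its summed UMIs of a gene per 1000000 of all its UMIs. Klf1, the red cell master regulator, had CPM of 76.8 and 80.2 just outside and inside the lower limit, and 163 and 146 just inside and outside the upper one. Mecom stood at 142 and 316 CPM across the lower limit and at 67.9 and 25.5 CPM across the upper one. Cd69 reached 1269 CPM in the 9 cells just outside the lower limit and 215 CPM in the 19 just inside.

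Depth moved with Car1, and its part in the ratios of summed UMIs was not tested. The median cell held 13415 UMIs in the Car1-low group, 24878 in the Car1-intermediate, 39551.5 in the Car1-higher and 24360 in the Pf4-high group, with medians of 4296, 5327, 5904 and 5386 genes. The Car1-intermediate cells ranged from 1666 to 165415 UMIs and summed to 11248054. Median mitochondrial shares were 1.75%, 1.46%, 1.35% and 1.43% in the same order. Scrublet, a doublet caller, marked 7 of the 2722 cells, 2 of them Car1-intermediate, and no cell was removed for it. That is under the rate at which such a caller is usually taken to work, so doublets may remain. The libraries shared 6 kept barcodes, 1 of them a Car1-intermediate cell.

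**Figure D1:**
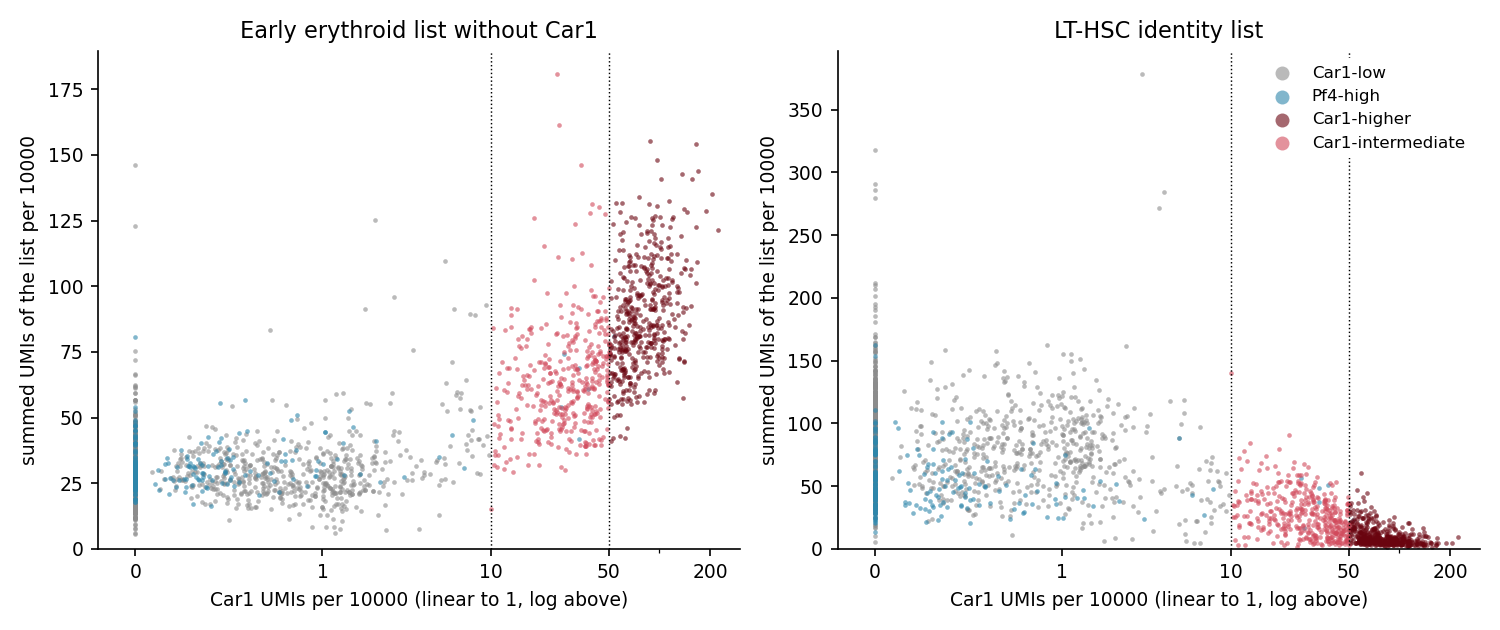
Each point is 1 kept LT-HSC cell, by its Car1 UMIs per 10000 (x axis, linear to 1 and log above) and the summed UMIs per 10000 of the early erythroid list without Car1 (left) or the LT-HSC identity list (right). Dotted lines mark the limits of 10 and 50. The Car1-intermediate cells (light red) lie between the Car1-low (grey) and Car1-higher (dark red) cells on both lists, with wide overlap.

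At full depth the marker genes were found in most of the chosen cells, but after the thinning described below only Car1 was. Car1 itself (chr3:14766216-14808368, minus strand, mm10), which the choice used, ran from 10.01 to 49.98 per 10000 UMIs with a median of 29.2. Zg16, a lectin of secretory granules, ran from 0 to 22.8 per 10000 with a median of 0.896. Clec4d, a C-type lectin receptor, ran from 0 to 9.19 with a median of 1.04. Cd69, a membrane lectin known as an early activation antigen of lymphocytes, had a median of 1.13 and a maximum of 86.3. Csrp3, the muscle LIM protein, had a median of 0.201 and a maximum of 11.8. Detection depends on depth at these levels, so each cell was also thinned to 5000 UMIs, which left 372 of the 383 cells.

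After thinning, 45.2% of Car1-intermediate cells held a Zg16 UMI (79.9% unthinned), against 3.68% of Car1-low and 31.6% of Car1-higher cells. Clec4d was seen in 47.6% (80.4% unthinned), 3.94% and 27.2% of the 3 groups, Cd69 in 46.8% (60.6% unthinned), 11.4% and 26.75%, and Csrp3 in 24.7% (52.2% unthinned), 1.46% and 15.35%. The Pf4-high cells, which are a different lineage at almost the same depth, show the background from free RNA plus any expression of their own. There the shares were 5.98% for Zg16, 8.76% for Clec4d, 23.1% for Cd69 and 6.77% for Csrp3, all below those of the Car1-intermediate cells.

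Red cell regulators were well above their Car1-low level in these cells. Klf1 (chr8:84901928-84905291, plus strand, mm10) stood at 9.38 CPM in Car1-low, 125 CPM in Car1-intermediate and 164 CPM in Car1-higher cells, 13.3-fold (11.6 to 15.3) above the Car1-low and 1.31-fold (1.23 to 1.40) below the Car1-higher cells. The Car1-intermediate cells were thus far closer to the Car1-higher cells in Klf1 RNA. In thinned cells Klf1 was found in 43.3% (38.2 to 48.5) of Car1-intermediate (84.1% unthinned), 52.4% of Car1-higher, 2.54% of Car1-low and 8.37% of Pf4-high cells.

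Gata1 was at 23.6, 103 and 125 CPM in the Car1-low, Car1-intermediate and Car1-higher cells, and at 58.1 CPM in the Pf4-high cells. Gata2 behaved otherwise, with 120.3 CPM in Car1-low cells, 136.5 CPM in Car1-intermediate and 50.5 CPM in Car1-higher cells. The Car1-intermediate level of Gata2 was 1.14-fold (1.07 to 1.21) that of Car1-low and 2.70-fold (2.49 to 2.93) that of Car1-higher cells. The cells thus held Gata1 RNA near the level of the Car1-higher cells and Gata2 RNA near that of the Car1-low cells. In thinned cells Gata2 was found in 54.8% of Car1-intermediate (89.8% unthinned), 40.4% of Car1-low and 21.5% of Car1-higher cells.

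Of the list of 19 erythroid and megakaryocyte transcription factors, 5 were at least 1.5-fold above the Car1-low cells (Gata1, Klf1, Gfi1b, Nfia and Myb) and 4 were as far below (Lyl1, Lmo2, Fli1 and Mef2c). Over all tested genes 9.18% were higher and 25.1% lower in that comparison. Against the Car1-higher cells 6 of the 19 were higher and 0 lower, beside 22.7% and 1.64% of all tested genes. The 6 were Gata2, Nfe2, Fli1, Runx1, Mef2c and Foxo3. Fli1, a driver of the megakaryocyte fate, was lower in each next group, at 332, 109 and 23.6 CPM, and stood at 581 CPM in Pf4-high cells. Epor, the erythropoietin receptor, ran 10.9, 34.5 and 54.25 CPM. Tfrc, the transferrin receptor that imports iron, ran 29.9, 64.5 and 87.9 CPM.

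Against the Car1-low cells 942 of 10262 genes tested were at least 1.5-fold higher (9.18%) and 2580 were at least 1.5-fold lower (25.1%). Tested genes had a mean of at least 5 CPM over the groups compared. The median log2 ratio of all tested genes was -0.13. With trimmed-mean scaling (TMM) it was -0.02, and the share of called genes that were higher moved from 26.8% to 36.0%. With median-of-ratios scaling that share was 39.1%.

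The genes farthest above the Car1-low cells included 3 blood group genes. Among the 12 highest were Car1, Cldn13, Ermap, Slc25a21, Sphk1, Slc38a5, Rhd, Atp1b2, Prss50, Kel and Tspo2. Ermap, which carries the Scianna blood group, was 25.9-fold (22.2 to 30.3) higher at 176 CPM. Rhd, of the Rh blood group, was 23.9-fold (18.0 to 32.5) higher at 47.3 CPM. Kel, of the Kell blood group, was 21.4-fold (16.4 to 28.4) higher at 48.8 CPM. Slc25a21, a mitochondrial carrier, was at 24.9 CPM in Car1-low and 545 CPM in Car1-intermediate cells.

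By list, 33 of the 40 measured early erythroid genes were higher than in Car1-low cells and 1 was lower (Cd24a, not so with TMM scaling), with a median log2 ratio of 2.09. Car1 chose the cells and the list was built with earlier results of these data known, so this count does not test the label. Of the 15 measured red cell membrane and skeleton genes 10 were higher, among them Ank1 (13.2-fold), which ties the membrane to its skeleton, and Add2 (24.9-fold). Of 15 measured haem synthesis genes 9 were higher, including Alad (2.47-fold) and Cpox (3.02-fold), both enzymes of the pathway. The list's median log2 ratio was 0.88. Beside these counts, 9.18% of all tested genes were higher than in Car1-low cells. For iron, Steap3, a reductase of endosomal iron, was 6.44-fold and Slc40a1, the iron exporter ferroportin, 11.8-fold higher.

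Adult globins did not share this direction. Of 4 globin genes only Hbb-bt passed the filter, at 47.6 CPM in Car1-low, 7.65 CPM in Car1-intermediate and 2.39 CPM in Car1-higher cells. The Car1-intermediate level in summed UMIs was thus 6.22-fold below that of Car1-low cells. The share of cells without a globin UMI was nearly the same, at 77.8% of Car1-low, 78.85% of Car1-intermediate and 78.6% of Car1-higher cells, at unlike depth. Single cells reached 37.96 globin UMIs per 10000 in the Car1-low group and 4.57 in the Car1-intermediate group. The part of such cells, of depth and of free RNA in the ratio was not tested.

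Promoter windows are shown for 4 genes because GATA1 and KLF1 are known to bind near red cell genes. These 4 were picked from the named genes because each window holds a GATA hexamer, so they do not stand for the rest. GATA factors read AGATAA or TGATAA, and KLF1 reads CACCC-type letters. Each line holds the 250 bases before the annotated start in the RefSeq table for GRCm38.p6, 5′ to 3′ on the gene's strand, with AGATAA or TGATAA, or their reverse complements, in capitals.
Klf1 (chr8:84901732-84901981, plus strand): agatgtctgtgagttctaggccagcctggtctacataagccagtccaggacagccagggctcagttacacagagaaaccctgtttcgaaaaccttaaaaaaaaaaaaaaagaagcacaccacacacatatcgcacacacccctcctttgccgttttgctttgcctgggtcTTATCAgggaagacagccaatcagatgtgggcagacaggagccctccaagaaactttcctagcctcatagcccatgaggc
Ermap (chr4:119189996-119190245, minus strand): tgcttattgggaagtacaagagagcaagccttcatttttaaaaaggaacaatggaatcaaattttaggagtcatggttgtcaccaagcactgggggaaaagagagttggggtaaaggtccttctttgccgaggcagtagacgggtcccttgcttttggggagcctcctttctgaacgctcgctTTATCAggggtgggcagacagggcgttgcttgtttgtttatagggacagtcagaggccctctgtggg
Kel (chr6:41704326-41704575, minus strand): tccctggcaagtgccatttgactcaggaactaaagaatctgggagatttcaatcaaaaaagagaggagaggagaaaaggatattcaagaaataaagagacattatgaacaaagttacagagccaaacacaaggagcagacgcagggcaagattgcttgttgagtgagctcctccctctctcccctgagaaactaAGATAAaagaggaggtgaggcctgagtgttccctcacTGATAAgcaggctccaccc
Pdzph1 (chr17:58991376-58991625, minus strand): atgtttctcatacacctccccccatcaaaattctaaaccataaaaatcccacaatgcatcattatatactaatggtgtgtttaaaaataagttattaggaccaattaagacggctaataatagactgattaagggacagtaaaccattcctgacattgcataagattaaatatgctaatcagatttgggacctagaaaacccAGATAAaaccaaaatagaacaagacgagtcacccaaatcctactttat
Either hexamer, on either strand, occurred in 16.6% of all 32851 windows of the table. Among the 12 genes highest over Car1-low cells, 8 were matched to 14 windows, of which 5 (35.7%) held one. The letters CCNCNCCC, which can overlap a GATA hexamer only in part, occurred on either strand in 8 of those 14 windows (57.1%) and in 45.9% of all windows. Of the 130 genes above both neighbouring groups described further on, 83 were matched to 108 windows, of which 12.04% held a GATA hexamer and 65.7% the letters CCNCNCCC. Several windows of a gene can overlap, and a match in these letters is a description, not a binding site.

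Stem cell genes were low but not gone. Of the 38 measured LT-HSC identity genes 33 were lower than in Car1-low cells and 1, Egr1, was higher, with a median log2 ratio of -2.45. Against the Car1-higher cells 25 of 28 measured members were higher and 0 were lower, with a median of 1.81. Over all tested genes 25.1% were lower in the first comparison and 22.7% higher in the second. Mecom stood at 711, 117 and 17.7 CPM in the Car1-low, Car1-intermediate and Car1-higher cells, which is 6.10-fold (5.77 to 6.46) below the first and 6.59-fold (5.85 to 7.44) above the last. Meis1, a homeobox factor of stem cells, stood at 716, 171 and 28.9 CPM. Hlf, a leucine zipper factor of stem cells, stood at 306, 40.8 and 6.37 CPM.

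Not every stem cell gene was held to the same degree. The 12 lowest against Car1-low cells were Lhcgr, Fcgrt, Shisa8, Cdkn1c, Procr, Nkx2-3, Rhoj, Wfdc2, S100a6, Myof, Plcl1 and Ldhb. Procr, the endothelial protein C receptor used to sort stem cells, was at 55.4, 5.07 and 1.22 CPM from low to higher Car1. Cdkn1c, the cell cycle inhibitor p57, went from 59.6 to 5.51 to 1.38 CPM. The Car1-intermediate cells stood 10.9-fold (8.39 to 14.5) below the Car1-low cells in Procr and 10.8-fold (8.39 to 14.2) in Cdkn1c.

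Against the Car1-higher cells 2119 of 9321 tested genes were at least 1.5-fold higher (22.7%) and 153 at least 1.5-fold lower (1.64%). This split rests on the scaling. The median log2 ratio of all tested genes was 0.20, and with TMM scaling it was -0.03. Higher genes were 93.3% of those called by summed UMIs, 59.9% with TMM scaling and 64.0% with median-of-ratios scaling. List medians below are read against that shift.

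The 12 highest over Car1-higher cells were Mir99ahg, Rgs1, Ctla2a, Mecom, Adgrl4, Cacnb2, Prkg1, Med12l, Meis1, Auts2, Myct1 and Mctp1, each of which was higher still in Car1-low cells. Rgs1, a regulator of G protein signalling, stood at 359, 105 and 14.4 CPM from low to higher Car1, with the Car1-intermediate cells 7.33-fold (6.44 to 8.38) above the last. Adgrl4, an adhesion receptor, stood at 582, 89.2 and 13.45 CPM. Prkg1, a cyclic GMP-dependent kinase, stood at 682, 165 and 27.15 CPM.

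The 12 lowest were Sphk1, Car1, Asns, C1qtnf12, Nxpe2, Rhd, Cited4, Mt2, Mt1, Asb17os, Prelid2 and Pla2g12a. Sphk1, which makes sphingosine 1-phosphate, was at 0.912, 26.2 and 78.5 CPM and thus 2.995-fold (2.64 to 3.40) below the Car1-higher cells. Asns, asparagine synthetase, was at 14.3, 24.3 and 65.5 CPM, with the larger step between Car1-intermediate and Car1-higher cells. Mt2, a metal-binding metallothionein, was at 5.09, 91.3 and 202 CPM. Of the 40 early erythroid genes 15 were lower than in Car1-higher cells and 4 were higher (Csrp3, Clec4d, Cd69 and Cpa3), with a median log2 ratio of -0.45. Car1 is among the 15 and drew both groups, so its direction was fixed by the choice. Csrp3, Clec4d and Cd69 are markers chosen with earlier results of these data known. With TMM scaling 22 were lower, beside 833 of all tested genes (153 in the main setting). Without it, 1.64% of all tested genes were lower and 22.7% higher.

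**Figure D2:**
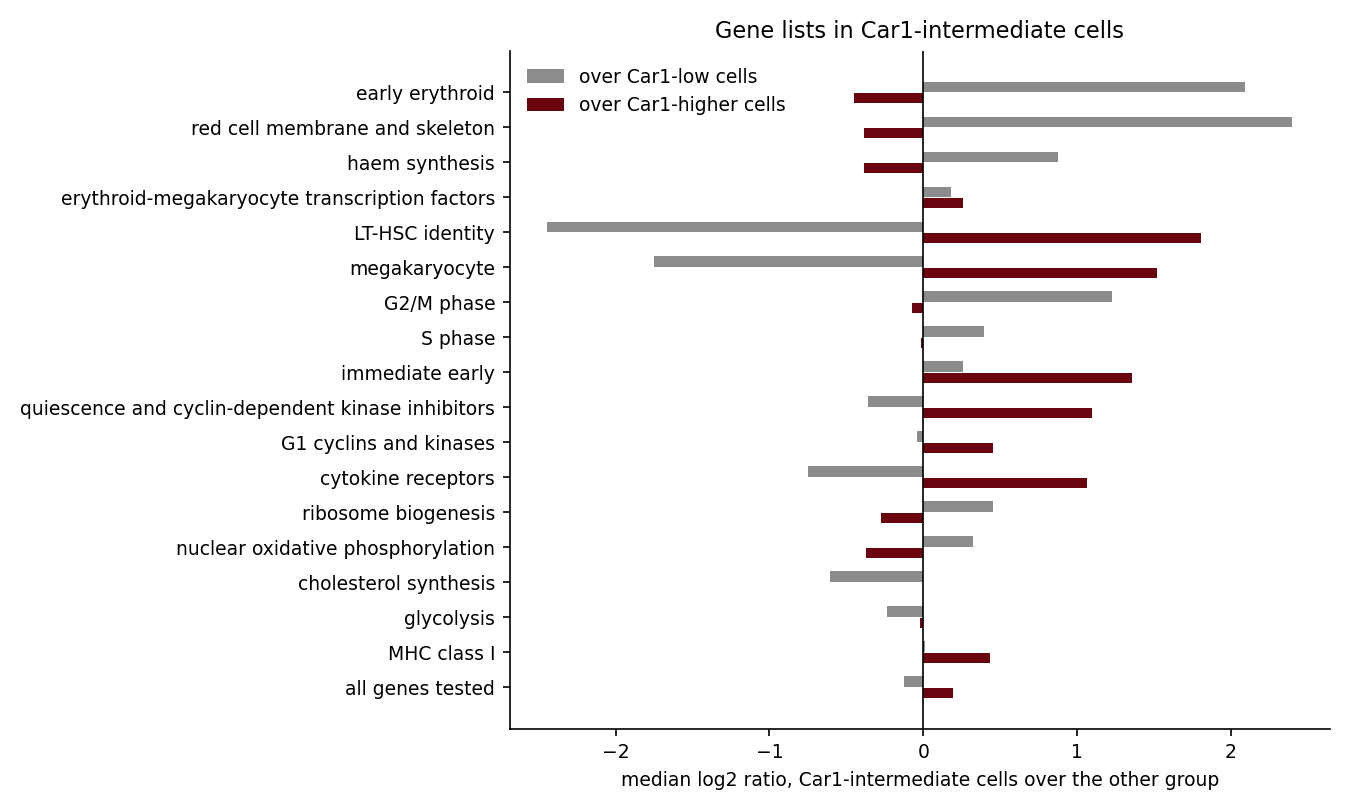
Bars give the median log2 ratio of each list's measured genes in Car1-intermediate cells over Car1-low cells (grey) and over Car1-higher cells (dark red), with all tested genes as the last row. The early erythroid list, which holds Car1, lies at 2.09 and -0.45 and the LT-HSC identity list at -2.45 and 1.81. Immediate early genes lie above 0 in both comparisons.

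Over most of the transcriptome the Car1-intermediate cells lay between their neighbours. Of 9947 genes tested over the 3 groups, 6921 (69.6%) had an intermediate level. Of those, 4767 (47.9% of the tested genes) were lower and 2154 (21.65%) higher at each step from Car1-low to Car1-higher cells. These counts rest on summed UMIs and were not repeated with other scalings. TMM scaling moved the median log2 ratio of all genes from -0.13 to -0.02 over Car1-low cells and from 0.20 to -0.03 over Car1-higher cells. The rule itself orders Car1, and genes that track it follow.

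The exceptions were 130 genes (1.31%) at least 1.5-fold above both neighbours, and 3 genes (0.0302%) as far below both. Among genes reaching 20 CPM, with unnamed gene models passed over, the 12 with the largest smaller ratio were Pdzph1, St8sia6, Scin, Phlda1, Dnah12, Cd69, Atf3, Cst7, Btg2, Nkg7, Lgals1 and Fam189b. All 12 stayed above both neighbours under each of the 15 alternatives run for them, while the number of genes above both ran from 71 to 1603. Of the 130 genes, 107 were also at least 1.5-fold above the Pf4-high cells.

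Pdzph1 (chr17:58878808-58991375, minus strand, mm10), which encodes a protein with PDZ and pleckstrin homology domains, had the largest smaller ratio. It stood at 4.71 CPM in Car1-low, 49.7 in Car1-intermediate, 9.47 in Car1-higher and 4.42 in Pf4-high cells. The Car1-intermediate level was 10.6-fold (8.67 to 12.9) above the Car1-low and 5.25-fold (4.44 to 6.23) above the Car1-higher cells. In thinned cells it was found in 24.2% of Car1-intermediate (46.2% unthinned), 1.14% of Car1-low, 8.99% of Car1-higher and 1.20% of Pf4-high cells. Per cell it ran from 0 to 18.0 per 10000 UMIs with a median of 0.

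St8sia6, a sialyltransferase that adds sialic acid to glycans, stood at 3.69, 51.5, 13.2 and 3.21 CPM in the Car1-low, Car1-intermediate, Car1-higher and Pf4-high cells. Scin, the actin-severing protein scinderin, stood at 2.55, 31.2, 11.7 and 0.401 CPM. Phlda1 stood at 11.7, 59.2, 17.4 and 13.7 CPM. All 3 genes shared the shape of Pdzph1, with Car1-higher cells above Car1-low cells.

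Cd69 (chr6:129267325-129275436, minus strand, mm10) was at 93.3 CPM in Car1-low, 390.4 CPM in Car1-intermediate, 128 CPM in Car1-higher and 132 CPM in Pf4-high cells. Its ratios were 4.18-fold (3.98 to 4.39) over Car1-low and 3.05-fold (2.90 to 3.21) over Car1-higher cells. Nkg7, a granule protein of natural killer and T cells, stood at 75.3, 197 and 52.4 CPM but reached 192 CPM in Pf4-high cells. The other T or NK cell markers were near 0: of 10 on the list only Nkg7 passed the filter, and the list summed to 199.9 CPM in Car1-intermediate cells, of which Nkg7 was 196.9 CPM. Lgals1, galectin-1, stood at 56.5, 162, 67.9 and 13.8 CPM.

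Plac8, a small cysteine-rich protein also found in myeloid progenitors, and Cxcl10, an interferon-induced chemokine, had the same shape. Cxcl10 was chosen after its values were seen. Plac8 stood at 345.5, 1303 and 627 CPM, and Cxcl10 at 56.1, 204 and 95.8 CPM, from low to higher Car1. Csrp3 stood at 4.90, 67.1 and 30.2 CPM and Clec4d at 13.4, 105 and 55.2 CPM, which puts both among the 130. The ratio of Clec4d over Car1-higher cells, 0.92 on the log2 scale, dropped under the 1.5-fold limit with TMM scaling over all genes, at 0.56.

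**Figure D3:**
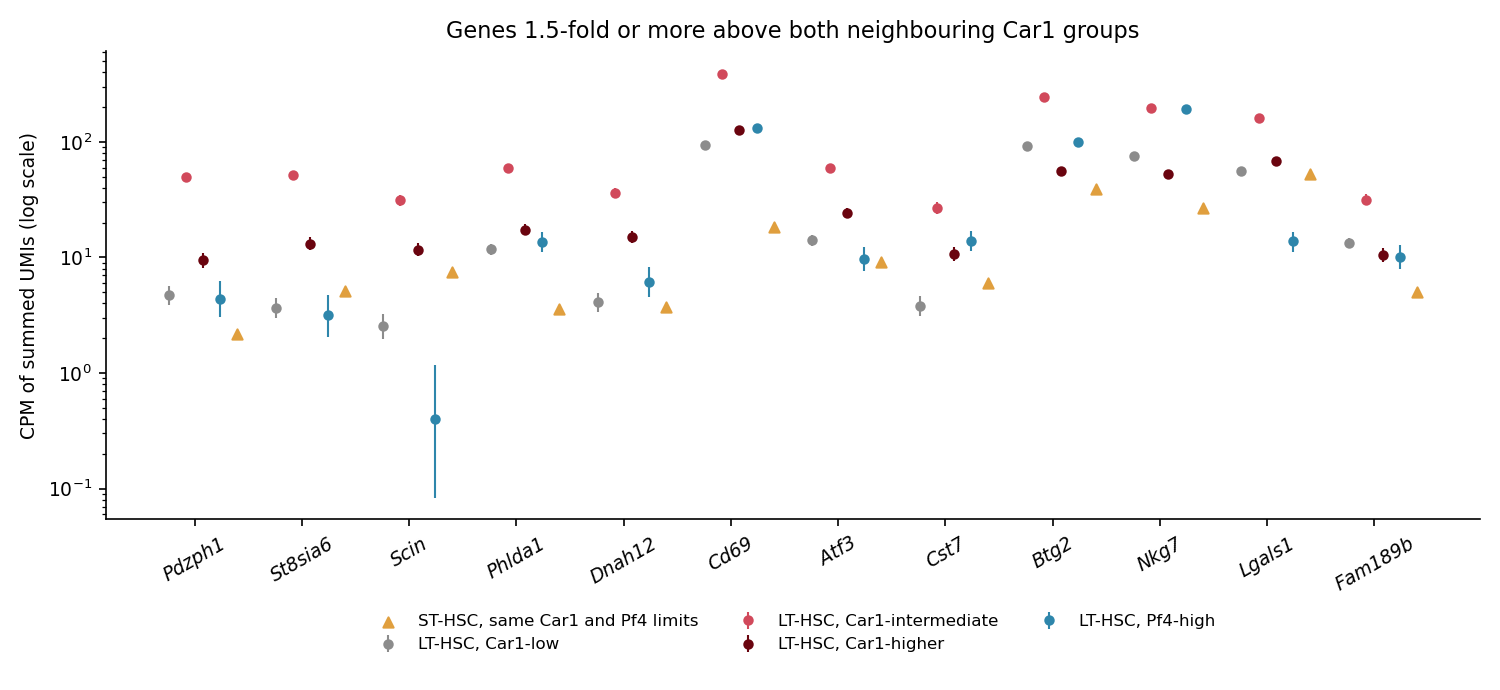
CPM of summed UMIs (log scale) of the 12 genes farthest above both neighbouring groups, with exact 95% Poisson intervals, in the 4 LT-HSC groups (circles) and, without interval, in the ST-HSC cells within the same Car1 and Pf4 limits (triangles). The Car1-intermediate LT-HSC cells are above the Car1-low and Car1-higher cells in each gene. Nkg7 is at 197 CPM there and at 192 CPM in Pf4-high cells.

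Only Cd24a, Wdsub1 and one unnamed gene model were below both neighbours. Cd24a, the heat-stable antigen of maturing blood cells, stood at 121, 78.5 and 138 CPM, which is 1.54-fold (1.43 to 1.66) below Car1-low and 1.76-fold (1.63 to 1.90) below Car1-higher cells. Its log2 ratio over Car1-low cells missed the 1.5-fold limit with TMM scaling, at -0.52, with median-of-ratios scaling, at -0.49, and with Car1 from 15, at -0.53. Wdsub1, named because the count is small, stood at 13.5, 8.80 and 14.9 CPM.

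A finer division by Car1 gave the bin in which each gene was highest, without intervals. The kept cells with Pf4 under 10 were cut into 10 bins of Car1 per 10000 UMIs, of which 4 hold the Car1-intermediate cells with 94, 103, 101 and 85 cells. Of the 130 genes, 42 were highest in the bin from 5 to 10, just below the lower limit, where there were 38 cells. A further 41 were highest from 10 to 20, 23 from 20 to 30, 22 from 30 to 40 and 2 from 40 to 50. The genes were chosen for being high in the middle, so only the place of the peak within the middle is open.

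Pdzph1 ran 1.23 CPM at Car1 under 1, then 14.5, 63.8, 65.7, 60.9, 41.7, 33.35, 14.5, 5.76 and 2.95 CPM in the 9 bins above it. Cd69 was highest at 669 CPM from 5 to 10, and was at 476, 486, 340, 273 CPM in the 4 Car1-intermediate bins. Of the 38 cells from 5 to 10, the 9 with Car1 from 8 to 10 stood at 1269 CPM. The place of the Cd69 peak thus rests in part on few cells. Scin also peaked from 5 to 10, at 45.6 CPM. Zg16 peaked later, at 131 CPM from 40 to 50, with 115 CPM already present from 10 to 20.

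Red cell genes differed in their course over the bins. Klf1, Rhd, Ermap and Sphk1 were higher in each next bin, while Kel was highest from 50 to 75, at 70.0 CPM, and at 54.3 CPM in the last bin. Klf1 went from 6.04 CPM at Car1 under 1 to 61.6 CPM from 5 to 10, 90.9 CPM from 10 to 20, 154 CPM from 40 to 50 and 181 CPM at 100 or more. Rhd went from 27.7 CPM at 10 to 20 to 67.0 CPM at 40 to 50 and 162 CPM at 100 or more. Mecom went from 747 CPM under 1 to 225 CPM at 10 to 20, 52.9 CPM at 40 to 50 and 3.93 CPM at 100 or more.

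**Figure D4:**
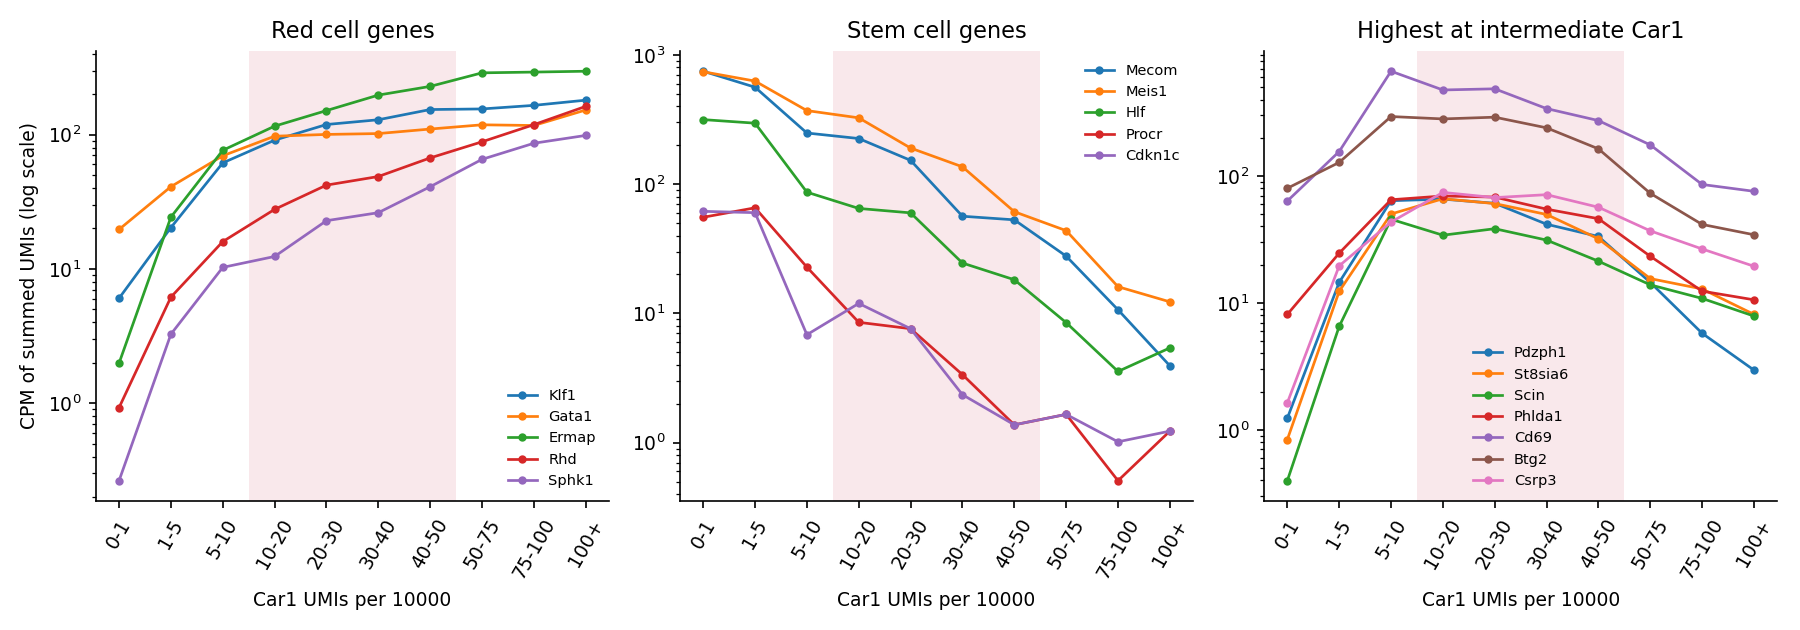
CPM of summed UMIs (log scale) in 10 bins of Car1 per 10000 UMIs among LT-HSC cells with Pf4 under 10, with no error drawn. The shaded bins are the Car1-intermediate cells. Red cell genes are higher in the right-hand bins than in the left-hand ones, stem cell genes lower, and Pdzph1, Cd69 and the other genes on the right are highest from 5 to 40 and lower at both ends.

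The chosen cells were not all alike. Split at their median Car1, 191 cells lay below and 192 at or above it. Of 9635 genes tested, 102 (1.06%) were at least 1.5-fold higher and 1105 (11.5%) at least 1.5-fold lower in the upper set, with a median log2 ratio of -0.10. Of the LT-HSC identity list 28 of 34 measured genes were lower in the upper set, with a median of -1.15, and of the megakaryocyte list 12 of 14. Of 40 early erythroid genes 8 were higher and 2 lower, with a median of 0.31. Because Car1 drew both sets and depth follows it (medians of 20226 and 26938.5 UMIs), these values are a description.

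Some single cells held UMIs of both red cell and stem cell genes. Thinned cells were scored for any UMI of the red cell genes Klf1, Ermap and Rhd and of the stem cell genes Mecom, Hlf, Meis1 and Procr, a choice made after values were seen. Of the 372 Car1-intermediate cells, 101 (27.15%, interval 22.7 to 32.0) held both kinds, 139 (37.4%) red cell genes only, 86 (23.1%) stem cell genes only and 46 (12.4%) neither. Both kinds were held by 3.43% of Car1-low, 14.25% of Car1-higher and 9.56% of Pf4-high cells. Stem cell genes only were held by 94.7% of Car1-low, 2.85% of Car1-higher and 84.5% of Pf4-high cells, so this score is not particular to stem cells. Meis1 was the most often found of the 4, in 42.7% of thinned Car1-intermediate and 89.6% of Pf4-high cells. In Car1-intermediate cells Mecom was found in 17.5%, Hlf in 7.26% and Procr in 1.34%. The part of free RNA in these shares was not tested.

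The cells with both kinds were not the deepest. Their median was 26578 UMIs before thinning, against 33059 in cells with red cell genes only and 19510 in those with stem cell genes only. Both Car1-intermediate cells that Scrublet marked were among the 101. The part of doublets in this share was not tested.

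**Figure D5:**
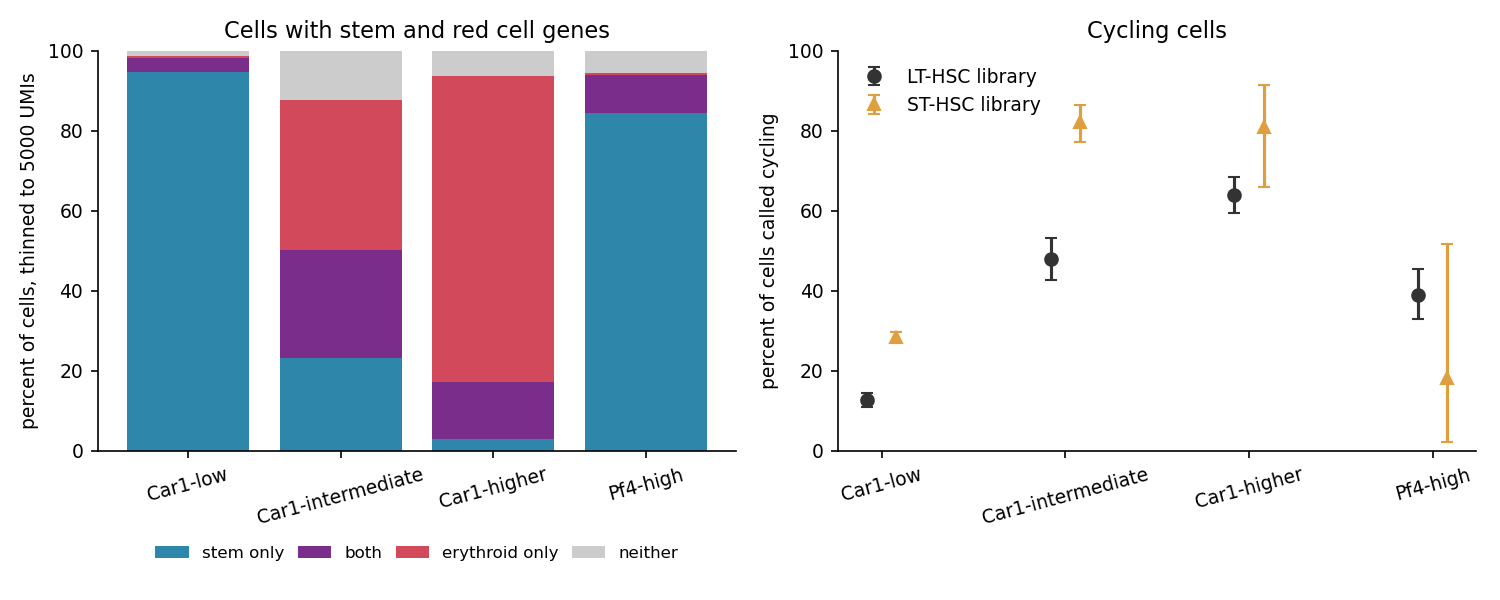
Left, percent of cells thinned to 5000 UMIs that held stem cell genes only, both kinds, red cell genes only or neither, in the 4 LT-HSC groups. Right, percent of thinned cells called cycling with exact 95% intervals in both libraries; in the LT-HSC library the Car1-intermediate cells lie at 47.85%, between 12.6% in Car1-low and 64.0% in Car1-higher cells.

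A large share of the cells carried cell cycle RNA. Cells were called cycling where, once thinned, 1% or more of the UMIs came from genes of the S or G2/M lists. That was true of 178 of 372 Car1-intermediate cells (47.85%, interval 42.7 to 53.1), 12.6% of Car1-low, 64.0% of Car1-higher and 39.0% of Pf4-high cells. With a limit of 2% the Car1-intermediate share was 1.08%, so the share depends on where the limit lies. Within the group 42.3% of the lower and 53.2% of the upper set by Car1 were called cycling, with overlapping intervals (35.0 to 49.8 and 45.8 to 60.4).

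G2/M genes set these cells apart from Car1-low cells. Of 52 measured G2/M genes 41 were higher and 1, Gas2l3, lower, with a median log2 ratio of 1.23. Of 38 S phase genes 12 were higher with a median of 0.39. Over all tested genes 9.18% were higher and 25.1% lower. Mki67, a proliferation marker, was at 82.8, 288 and 224 CPM from low to higher Car1. Against Car1-higher cells 4 of 53 G2/M genes were lower (Ube2c, Gtse1, Cenpa and Plk1) and none higher, beside 1.64% and 22.7% of all tested genes. Without the cells called cycling, the counts over Car1-low cells were 33 of 46 for G2/M and 25 of 38 for S phase genes. These same lists made the call, so the counts without such cells are a description and test nothing. In that setting 897 of all tested genes were higher than in Car1-low cells, against 942 with all cells.

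Cell cycle inhibitors and G1 genes did not follow a single order. Of 14 measured genes on the quiescence and inhibitor list 12 were higher than in Car1-higher cells, with a median log2 ratio of 1.10, among them Cdkn1a (3.11-fold) and Btg2 (4.37-fold). Over all tested genes 22.7% were higher in that comparison. Against Car1-low cells 2 of 18 were higher (Cdkn2c and Btg2, 11.1%) and 7 lower (38.9%). Of all tested genes 9.18% were higher and 25.1% lower there, so the higher share is near that of all genes. Btg2, an antiproliferative gene, ran 92.2, 242 and 55.5 CPM. Cdk6, a kinase that drives exit from quiescence, ran 399, 833 and 511 CPM. Its 1.63-fold ratio over Car1-higher cells was 0.47 on the log2 scale with TMM scaling and then under the limit. Ccne1, cyclin E1, was highest in Car1-higher cells, at 6.497, 21.5 and 39.99 CPM.

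Immediate early genes, which cells switch on soon after a stimulus, were high in the Car1-intermediate cells. Of 18 measured members 17 were higher than in Car1-higher cells with a median log2 ratio of 1.36. Against Car1-low cells 7 of 20 were higher and 6 lower, with a median of 0.26. Over all tested genes 22.7% were higher in the first comparison, and 9.18% higher and 25.1% lower in the second. Jun ran 625, 1128 and 431 CPM, Egr1 202, 338.5 and 124 CPM, and Fosb 50.6, 102 and 48.8 CPM from low to higher Car1. Nr4a1 went the other way from Jun between the first groups, at 120, 32.4 and 6.01 CPM. The summed list had per-cell medians of 34.1 per 10000 UMIs in Car1-low, 51.7 in Car1-intermediate, 19.2 in Car1-higher and 19.4 in Pf4-high cells, with single Car1-intermediate cells from 0.481 to 353. By bin it was highest from 5 to 10, at 6197.5 CPM. Atf3 and Btg2, both on this list, are among the 12 genes above both neighbours.

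Growth and metabolism lists did not share 1 direction. Over all tested genes 9.18% were higher and 25.1% lower than in Car1-low cells. Against Car1-higher cells 22.7% of all tested genes were higher and 1.64% lower. With TMM scaling 833 of all tested genes were lower than in Car1-higher cells, against 153 without it, so TMM counts are read beside the larger number. Of 32 ribosome biogenesis genes 10 were higher and 0 lower than in Car1-low cells, and 0 passed the limit against Car1-higher cells, where 10 were lower with TMM scaling. Ncl, nucleolin, ran 755, 1309 and 1680 CPM. Of 76 nuclear oxidative phosphorylation genes 13 were higher than in Car1-low cells and 4 lower than in Car1-higher cells (43 with TMM scaling). Of 20 cholesterol synthesis genes 10 were lower than in Car1-low cells, with a median log2 ratio of -0.61 that was -0.50 with TMM scaling. Of 16 glycolysis genes 7 were lower than in Car1-low cells, among them Ldhb (125 and 13.9 CPM) and Pkm (288 and 62.5 CPM). A further count, 5 of 16 higher than in Car1-higher cells (31.25%), is near the share of all genes. The glycolysis list summed to 3525 CPM in Car1-low, 3034 CPM in Car1-intermediate and 3479.8 CPM in Car1-higher cells.

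Receptors differed among themselves. Of 16 measured cytokine receptors 9 were lower than in Car1-low cells and 2, Epor and Ifngr1, higher. Over all tested genes 25.1% were lower and 9.18% higher, so the 2 higher of 16 (12.5%) are near that share. Csf2rb, the shared chain of the interleukin 3 and interleukin 5 receptors, was at 14.4 CPM in Car1-low and 17.2 CPM in Car1-intermediate cells but at 2.70 CPM in Car1-higher cells, a 6.36-fold difference from the last.

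RNA of the sorting gate's genes varied across the groups. Cd48, whose protein the LT-HSC gate excludes, was 5.13-fold (4.53 to 5.83) higher in RNA than in Car1-low cells, at 70.4 against 13.7 CPM, and it was at 51.4 CPM in Car1-higher cells. In thinned cells it was found in 32.0% of Car1-intermediate (74.7% unthinned) and 3.56% of Car1-low cells. Slamf1, which encodes CD150, was at 40.4, 25.2 and 7.59 CPM. Ly6a, which encodes Sca-1, was at 314, 172 and 81.6 CPM. Kit was at 212, 147 and 111 CPM. Cd34 was at 60.9, 8.89 and 1.89 CPM. RNA levels need not follow the surface protein on which cells were sorted.

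Genes of other lineages did not share 1 pattern. Mpo, a granule enzyme of myeloid progenitors, and Dntt, a DNA polymerase of lymphoid progenitors, had UMIs in 0 of 372 thinned cells, and 3 counts of 372 would be a share of 0.806%. Unthinned, 0.261% of the cells held a Mpo UMI and 0 a Dntt UMI. These shares limit cells with a captured UMI, not cells that express the genes. The megakaryocyte list holds Pf4, which chose the cells. Without it, 14 of 16 measured genes were lower than in Car1-low cells and 0 higher, with a median log2 ratio of -1.69, beside 25.1% and 9.18% of all tested genes. So counted, the list summed to medians of 9.36 per 10000 UMIs in Car1-low, 4.69 in Car1-intermediate, 1.89 in Car1-higher and 32.7 in Pf4-high cells. Vwf was at 6.49 CPM and Itga2b at 15.7 CPM, against 124 and 164 CPM in Pf4-high cells.

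Over all tested genes 25.1% were lower and 9.18% higher than in Car1-low cells, and 22.7% higher than in Car1-higher cells. Of the neutrophil and monocyte progenitor list 8 of 20 genes were measured, and 6 were lower and 1, Plac8, higher than in Car1-low cells. The summed list was nevertheless highest in the Car1-intermediate cells, with medians of 11.3 per 10000 UMIs in Car1-low, 18.1 in Car1-intermediate, 9.02 in Car1-higher and 7.41 in Pf4-high cells, and Plac8 was 1303 of its 1727.5 CPM. Of the dendritic cell and MHC class II list 3 of 7 measured genes were lower than in Car1-low and 5 of 6 higher than in Car1-higher cells, with summed levels of 1994, 1234 and 703 CPM from low to higher Car1. No member of the macrophage or the mature neutrophil list passed the filter, and 351 and 363 of the 383 cells had 0 UMIs over those lists. The list of 8 mature B or plasma cell genes had 0 UMIs in 296 cells. The endothelial or stromal list of 9 genes, of which Pecam1 and Emcn also mark stem cells, summed to 31.0 CPM. Cpa3, carboxypeptidase A3 of mast cells and early progenitors, was at 4.14, 13.2 and 4.84 CPM, while 3 or 4 of the 15 basophil and mast cell genes were measured in each comparison.

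Against all other LT-HSC cells together, 415 of 9948 genes were at least 1.5-fold higher (4.17%) and 1095 lower (11.0%). The 12 highest were Pdzph1, St8sia6, Scin, Csrp3, Phlda1, Dnah12, Gna14, Cd69, Parm1, Clec4d, Atf3 and Cst7. Of these, Gna14, a G protein alpha subunit, and Parm1 add to the genes above. Gna14 was at 5.78, 81.5, 50.5 and 2.41 CPM and Parm1 at 8.28, 66.2, 33.8 and 11.1 CPM in the Car1-low, Car1-intermediate, Car1-higher and Pf4-high cells. Among the 12 lowest were Pf4, Ptgs1, Gucy1a1, Cavin2, Lhcgr, S100a6, Hmgn3, Cdkn1c, Nkx2-3 and Procr, of which Pf4 was part of the choice.

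The same limits in the ST-HSC library selected 305 of 6648 cells (4.59%, interval 4.10 to 5.12), and only 42 cells had more Car1. The ST-HSC cells in these limits were deeper, with a median of 38060 UMIs, and 82.1% (77.2 to 86.4) were called cycling against 47.85% in the LT-HSC library. There 1888 of 10198 genes were at least 1.5-fold above the Car1-low cells (18.5%) and 3531 below (34.6%). Over the 42 Car1-higher cells 847 of 8990 were higher (9.42%) and 142 lower (1.58%). Both libraries used their own Car1-low and Car1-higher cells, so the levels are set side by side without a test.

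At about the same Car1, early erythroid genes differed in both directions between the libraries, and no count over the list was made. Median Car1 was 28.8 per 10000 UMIs there and 29.2 in the LT-HSC cells. Klf1 was at 248 CPM against 125 CPM, Rhd at 246 against 47.3 CPM, Ermap at 371 against 176 CPM and Ank1 at 224 against 42.2 CPM. Csrp3 was at 19.98 against 67.1 CPM, Clec4d at 7.56 against 105 CPM and Cpa3 at 1.998 against 13.25 CPM. Mecom was at 79.7 against 117 CPM and Gata2 at 32.2 against 136.5 CPM.

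Of the 130 genes above both neighbours in the LT-HSC library, 107 passed the filter in the ST-HSC library, and 4 of those were above both neighbours there. In the ST-HSC cells 84 of 9912 genes were above both neighbours (0.847%), so the 4 shared genes are 3.08% of the 130 and 4.76% of the 84. They were Csrp3, Tent5c, Rtl4 and P2ry1. Cd69 was at 18.2 CPM in the ST-HSC cells within the limits, against 390.4 CPM in the LT-HSC cells, and below the 79.9 CPM of ST-HSC Car1-low cells. Of the 23 genes under the filter there, 8 were 1.5-fold above both neighbours at these low levels, Pdzph1 among them, at 0.274, 2.17 and 0.634 CPM from low to higher Car1 in the ST-HSC cells. In the Car1 range Pdzph1 was thus at 2.17 against 49.7 CPM and St8sia6 at 5.13 against 51.5 CPM. Immediate early genes were 0 of 18 higher and 17 of 18 lower than in the ST-HSC Car1-low cells, beside 18.5% and 34.6% of all tested genes. Those Car1-low cells were 94.6% of the kept ST-HSC cells, against 59.8% of the kept LT-HSC cells, so the 2 comparators are not alike. Library and gate cannot be told apart here.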

How the data were processed

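Single cells of 2 sorted stem cell groups were profiled in 1 library each. The deposited matrices hold UMI counts per gene and barcode, made by the authors with Cell Ranger 7.2 on mm10 per the submitters' processing notes (7.1.0 per the file headers). No deposited value column was left unmapped. From these counts, cells with at least 1000 genes and under 10% mitochondrial UMIs were kept, counts were summed per group and scaled to CPM, and ratios were given exact conditional binomial 95% intervals. Genes needed a mean of 5 CPM, and a difference was called by size at 1.5-fold, with no test. Malat1 was left out of summed list levels. Shares were taken after thinning each cell to 5000 UMIs. Doublets were marked with Scrublet in scanpy 1.11.5 and kept in the main values. It marked 0 ST-HSC cells and was taken as not working there. Intervals cover counting error only, and depth limits genes of a few CPM most.

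The members, the gene lists and the rules were chosen with earlier results of these data known. Genes were named as the 12 highest and the 12 lowest in each comparison by the interval bound nearest 1 (20 CPM reached, unnamed gene models passed over), the 12 most above or below both neighbours, up to 4 members per list, the 5 markers, the gate genes and some lineage genes. Further genes (Gfi1b, Nfia, Myb, Lmo2, Nfe2, Foxo3, Egr1, Jun, Fosb, Cxcl10, Wdsub1, Gas2l3, Cdkn2c, Ifngr1, Tent5c, Rtl4 and P2ry1) were named after their values were seen. Alternatives covered the Car1 and Pf4 limits, TMM (edgeR 4.0.16) and median-of-ratios scaling, filters, means over cells, and leaving out cells that were deepest, marked as doublets or called cycling. Scaling over all genes and a stricter Car1-low group were chosen after seeing the data. The ratio and interval code was tested on simulated data. Gene positions are from GENCODE for mm10, matched by symbol for 355 of 356 genes, and promoter windows are from RefSeq. A few genes that the rule names are not reported here.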

Additional observations from a re-analysis of the deposited data

How the results depend on the processing

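The number of Car1-intermediate cells (383) was 337 with Car1 from 15, 197 with Car1 under 30 and 205 without cells called cycling, and that of ST-HSC cells in the same limits (305) was 266, 163 and 66, and 172 without the 5% of cells with the most UMIs. The cycling share of 47.85% was 1.075% with a limit of 2% of UMIs. Genes higher than in Car1-higher cells (2119) numbered 1244 with TMM, 1303 with median-of-ratios, 992 and 1048 with these over all genes, 7691 with no filter and 1053 at 20 CPM. Genes lower (153) numbered 833, 732, 1544 and 1385 with the same scalings, 1995 with no filter, 316 with Car1 under 30, 347 as means over cells, 232 without the deepest cells and 433 without cycling cells. Over Car1-low cells, genes higher (942) numbered 1491 and 1713 with the scalings over all genes and 2957 with no filter, and genes lower (2580) numbered 8830 with no filter and 1194 at 20 CPM. Over all other cells, genes higher (415) numbered 2583 with no filter, 246 at 20 CPM and 823 as means over cells, and genes lower (1095) numbered 7488, 359 and 1709, and 681 with Car1 under 30. Genes above both neighbours (130) numbered 84 with TMM, 71 and 84 with the scalings over all genes, 1603 with no filter, 71 at 20 CPM and 297 as means over cells. Genes below both (3) numbered 16 with TMM, 15 with median-of-ratios, 30 and 22 over all genes, 1171 with no filter, 1 at 20 CPM, 1 with Car1 from 15, 15 with Car1 under 30, 5 with Pf4 under 2, 25 as means over cells, 10 without the deepest cells and 27 without cycling cells. A filter changes these counts by testing more or fewer genes. For the other changes the cause was not tested.

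Of 706 results for named genes, 0 changed sign past the limit under any alternative, and the most moved under the 1.5-fold limit was 50 (Car1 under 30, with 23 moved past it) and the most past it 51 (median-of-ratios over all genes, with 29 moved under it). TMM scaling moved 22 under and 32 past it. With 1 library per group no replicate could be left out. No paired analysis was possible because each group has 1 library.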
